A study of Mus musculus with 6 samples.

Results

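The genes within 10 Mb of Ppme1 on mouse chromosome 7 were examined in whole brain of wild-type (WT) mice and of mice with the S156A form of PME-1, the protein that Ppme1 encodes. A gene belonged to the set when its row carried a mouse Ensembl identifier, lay on chromosome 7 and started within 10 Mb of the start of Ppme1. For the set and for distances, start is the lower coordinate of a row on either strand. Distances run between these coordinates and are not gaps between genes. Rows that shared an identifier were summed. Ppme1 itself and 9 other genes of the window were left out of the set by name. Ppme1 is described on its own, and the 9 others were not analysed here. The rule kept 689 of the 55359 annotated genes, 184 at lower and 505 at higher coordinates than Ppme1. Their starts ran from 90075785 to 109907220 on chromosome 7. The comparison addresses whether the level of a gene near the altered locus differed between the genotypes, by distance and by side.

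Total RNA came from brains of embryos at E18.5, a late stage of gestation, with 3 brains pooled in each library. There were 3 WT libraries and 3 S156A libraries, and they differ in the labels by the PME-1 genotype alone. The sources used here do not give the strain, the zygosity, the sex of the pooled embryos or the way the S156A allele was made. Because each library is a pool, the p-values measure the spread between pools and not between single embryos.

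PME-1 is a methylesterase that removes the methyl group from the C-terminal residue of the catalytic subunit of protein phosphatase 2A, and the serine replaced in S156A is the nucleophile of its active site. When an altered allele is made in cells of one mouse strain and crossed into another, sequence of the donor strain can stay linked to it, and genes close to the locus can then carry strain variants of their own. Recombination shortens such a stretch on either side of the locus over generations. Many genes of this window are olfactory receptors, which nasal sensory neurons use, while others serve membrane traffic, mitochondria, synapses or protein synthesis.

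The altered codon, the promoter bases that Ppme1 shares with its neighbour C2cd3 and the promoters of 4 nearby genes described below are printed first. They show what lies at and around the locus. The codon comes from the GENCODE M21 transcript Ppme1-201, codons 150 to 162 of the reference (GRCm38), 5′ to 3′ with the codon of the S156A change in capitals.
Ppme1 codons: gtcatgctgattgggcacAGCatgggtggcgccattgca
The reference codon is AGC, a serine codon. The sources used here do not give the base change that makes S156A.

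Ppme1 (ENSMUSG00000030718.10) runs on the minus strand from 99975944 to 100021514 in the files' coordinates, whose build is inferred to be GRCm39. C2cd3, which encodes a centriole protein needed for building cilia, starts in the same coordinates on the plus strand inside the first bases of Ppme1. The RefSeq promoter windows of the 2 genes (GRCm38.p6, from 250 bases before to 50 bases after the start) have 164 bases in common. These are in capitals in the C2cd3 window and lie before the C2cd3 start.
C2cd3, chr7:100371983-100372282, plus strand: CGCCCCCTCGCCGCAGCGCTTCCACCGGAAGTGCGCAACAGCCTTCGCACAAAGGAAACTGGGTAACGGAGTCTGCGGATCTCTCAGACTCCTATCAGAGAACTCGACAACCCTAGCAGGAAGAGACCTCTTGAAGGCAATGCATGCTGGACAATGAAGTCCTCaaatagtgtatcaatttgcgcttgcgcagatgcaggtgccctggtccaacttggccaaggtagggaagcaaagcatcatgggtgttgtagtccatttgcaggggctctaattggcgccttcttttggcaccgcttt

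The next 4 windows (RefSeq, GRCm38.p6, 5′ to 3′ along the gene) belong to 4 neighbours with separate groups, described below, that lie within 1 Mb of Ppme1. Capitals mark matches, on either strand, to 3 motifs: the GC box (GGGCGG or CCGCCC), an ETS core (GAGGAA or TTCCTC) and an RFX half-site (GTTGCC or GGCAAC). Overlapping matches were counted separately. For Slco2b1 the first of 3 windows is shown.
Slco2b1, chr7:99711291-99711590, minus strand: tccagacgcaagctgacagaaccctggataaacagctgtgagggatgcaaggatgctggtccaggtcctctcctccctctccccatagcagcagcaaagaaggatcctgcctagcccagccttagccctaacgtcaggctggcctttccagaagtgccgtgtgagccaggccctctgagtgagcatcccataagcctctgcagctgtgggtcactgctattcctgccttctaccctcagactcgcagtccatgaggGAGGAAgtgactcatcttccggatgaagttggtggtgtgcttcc
Pgm2l1, chr7:100227357-100227656, plus strand: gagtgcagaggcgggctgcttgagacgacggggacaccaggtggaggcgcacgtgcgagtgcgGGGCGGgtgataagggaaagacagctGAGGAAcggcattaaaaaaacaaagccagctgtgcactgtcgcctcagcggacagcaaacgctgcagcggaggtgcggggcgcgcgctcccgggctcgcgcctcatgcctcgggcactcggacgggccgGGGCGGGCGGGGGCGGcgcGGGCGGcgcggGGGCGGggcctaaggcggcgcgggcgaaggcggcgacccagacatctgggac
Ucp2, chr7:100493108-100493407, plus strand: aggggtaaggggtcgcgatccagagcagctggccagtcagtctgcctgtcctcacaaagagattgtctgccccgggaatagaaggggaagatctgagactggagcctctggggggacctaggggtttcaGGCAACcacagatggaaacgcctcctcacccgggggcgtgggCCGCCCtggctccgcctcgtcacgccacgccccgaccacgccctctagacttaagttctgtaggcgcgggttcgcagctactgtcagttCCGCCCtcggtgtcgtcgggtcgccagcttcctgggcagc
Dnajb13, chr7:100514766-100515065, minus strand: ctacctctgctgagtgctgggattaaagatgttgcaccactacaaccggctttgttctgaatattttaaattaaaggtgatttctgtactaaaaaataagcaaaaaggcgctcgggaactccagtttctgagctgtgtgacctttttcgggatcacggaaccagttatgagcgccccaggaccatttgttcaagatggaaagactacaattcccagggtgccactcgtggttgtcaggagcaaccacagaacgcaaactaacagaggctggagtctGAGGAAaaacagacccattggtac
The Pgm2l1 window held 6 GC boxes and 1 ETS core, and the Ucp2 window 2 GC boxes and 1 RFX half-site. Slco2b1 and Dnajb13 each held 1 ETS core and no GC box. Promoter windows were found for 333 of the 689 genes and for 115 of those tested. Of these 115, 63 (54.8%) held a GC box, 31 (27.0%) an ETS core and 17 (14.8%) an RFX half-site. Among all 27025 genes with a window the shares were 35.9%, 28.3% and 12.7%. The 27025 were not filtered by level, while the 115 passed the filter on levels given below. These sets are unlike, so the shares do not tell whether genes near Ppme1 differ from others. A match describes the letters of the window and nothing about binding.

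Ppme1 was transcribed in every library, and levels are given as TPM, a length-corrected share of the library, in the order of replicates 1 to 3. The WT libraries held 92.4, 95.0 and 74.0 TPM of it and the S156A libraries 72.4, 89.0 and 82.7 TPM. The groups overlapped. The log2 difference, S156A against WT on the log2(TPM + 1) scale as for every difference below, was -0.09 (SE 0.14, limma adjusted p = 0.804). A change of 1 codon need not alter a transcript level, so this value does not check the labels.

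Of the 689 genes around Ppme1, 313 were listed at 0 in all 6 libraries and 208 were above 0 with a mean under 1 TPM. The remaining 168, with a mean of at least 1 TPM, were tested, 66 on the side of lower and 102 on the side of higher coordinates. Of these 168, 10 had a mean under 1 TPM in one of the genotypes and passed this filter through the other genotype alone. They include 6 of the 42 genes with separate groups and 3 of the 31 with an unadjusted p under 0.05 counted below, and the means of such genes had to differ. In addition, 110 of the 168 overlap another annotated row. Their median level was 12.7 TPM, against 15.4 TPM over all 18893 genes tested.

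None of the 168 genes passed the test for a difference between the genotypes. By limma, 0 of 168 had an adjusted p under 0.05, where 30 of the 18893 genes tested (0.159%) did, and the smallest adjusted p near Ppme1 was 0.0948. At an unadjusted limma p under 0.05 stood 31 of 168 genes (18.45%), against 13.9% of all genes tested. In 24 of these the S156A level was the higher one, in 7 the lower one, beside 8.41% and 5.50% of all genes. With 3 libraries per group, a difference near its standard error was not detectable. In data simulated with each gene's own mean and spread, limma called 1 of 50 genes changed by 0.5 on the log2 scale. It called 18 of 50 genes changed by 1 and 35 of 50 changed by 2, so larger differences could also be missed.

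A second count needs no model. In 42 of the 168 genes (25%) the 3 S156A libraries lay all above or all below the 3 WT libraries, against 20.8% of all genes tested. S156A was on the higher side in 29 (13.7% among all genes) and on the lower side in 13 (7.05% among all genes). These 42 genes occupy 37 separate stretches, since some rows overlap. The split by direction moved with the scaling of the libraries. Scaled by a trimmed mean of M values it was 21 higher and 24 lower (all genes 9.01% and 11.7%), and after quantile normalization 23 higher and 17 lower (all genes 9.67% and 9.34%).

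Log2 differences around Ppme1 ran from -1.40 to 1.38, with a median of 0.15 and a median size of 0.25, whichever the direction. Over all genes tested the median was 0.09 and the median size 0.22. The median standard error of 0.23 was about as large as the typical difference (all genes 0.22). The rest of chromosome 7, with 1336 genes tested, had a median of 0.09, and in 19.4% of its genes the groups did not overlap.

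**Figure D1:**
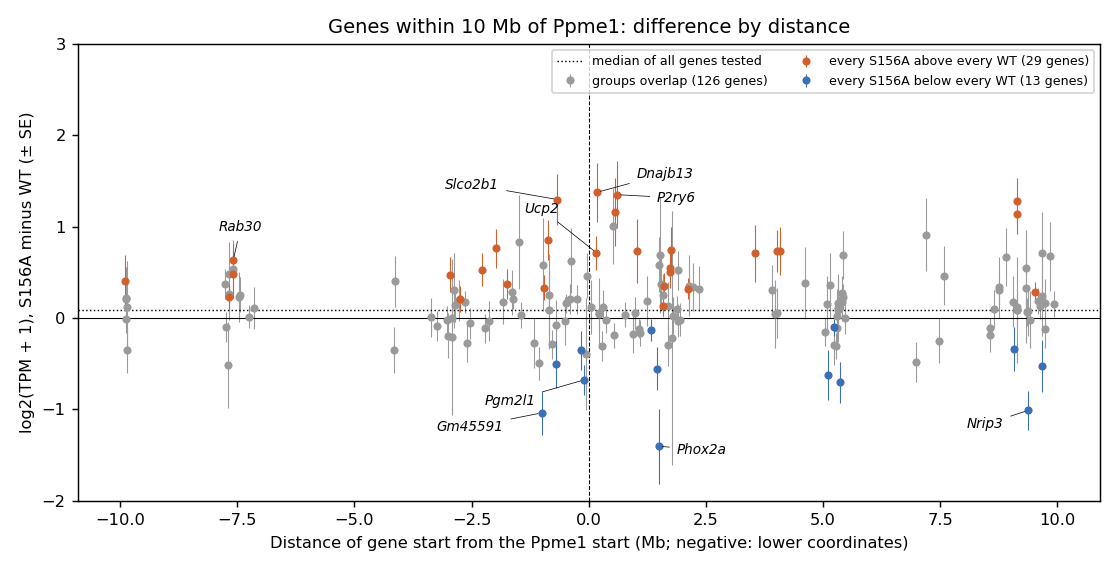
Log2 difference between S156A and WT (log2(TPM + 1) scale, vertical axis) of each tested gene against the distance of its start from the Ppme1 start in Mb (horizontal axis, lower coordinates to the left). Bars are standard errors, the dotted line is the median of all genes tested, and colours mark the 29 genes with every S156A library above and the 13 with every S156A library below every WT library. Values run from -1.40 to 1.38.

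The groups of S156A and WT libraries were separate in 32.4% of the tested genes within 2.5 Mb of Ppme1 and in 19.1% of those from 2.5 to 10 Mb. Within 1 Mb, 9 of 33 tested genes (27.3%) had an unadjusted limma p under 0.05, and between 1 and 2.5 Mb 12 of 41 (29.3%). From 2.5 to 5 Mb it was 3 of 23 (13.0%), and from 5 to 10 Mb 7 of 71 (9.86%). In the same order, the groups did not overlap in 10 of 33 genes (30.3%), 14 of 41 (34.1%), 5 of 23 (21.7%) and 13 of 71 (18.3%). Over all genes tested it was 20.8%, near the shares of the outer bins. The difference between the bins was not tested.

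Within 2.5 Mb the shares were near each other on both sides of Ppme1. On the side of lower coordinates 8 of 31 genes (25.8%) had an unadjusted p under 0.05, and on the other side 13 of 43 (30.2%). From 2.5 to 5 Mb the sides were apart, with 1 of 16 (6.25%) on the side of lower and 2 of 7 (28.6%) on the side of higher coordinates, and separate groups in 2 (12.5%) and 3 (42.9%). From 5 to 10 Mb they held 1 of 19 (5.26%) and 6 of 52 (11.5%). Both sides together, the 21 of 74 genes (28.4%) within 2.5 Mb compare with 10 of 94 (10.6%) between 2.5 and 10 Mb and with 13.9% of all genes tested. Signed medians did not follow the distance: they were 0.12, 0.18, 0.14 and 0.15 from the nearest to the farthest bin. The median size, whichever the direction, was 0.29, 0.32, 0.21 and 0.24. Of the 74 genes within 2.5 Mb, 24 had groups that did not overlap (20 separate stretches), 17 with S156A higher and 7 with S156A lower. Of these 24, 2 passed the filter on levels through 1 genotype alone, so their means had to differ. The same holds for 2 of the 21 with an unadjusted p under 0.05.

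The share with an unadjusted p under 0.05 within 2.5 Mb stayed above that of all genes with FPKM in place of TPM (24.6% against 15.3%), with trimmed mean scaling (24.3% against 13.8%) and after quantile normalization (17.6% against 12.8%). When WT replicate 3 and S156A replicate 1, which are rich in skeletal muscle transcripts, were left out together, it was 25.4% against 17.0%, and 89 of 164 genes of the whole window had separate groups, where 50.3% of all genes did. The levels of Y-linked genes as a covariate gave 18.9% against 11.5%. With the replicate number as a block, 23 of the 168 genes (13.7%) had an unadjusted p under 0.05, against 9.95% of all genes. Among genes that overlap no other annotated row, 6 of 24 (25%) within 2.5 Mb and 3 of 34 (8.82%) beyond had an unadjusted p under 0.05. With single libraries left out, the share within 2.5 Mb ranged from 15.1% to 27.4%. It was lowest without WT replicate 2, where it was 6.32% from 2.5 to 10 Mb and 8.1% over all genes, and 18.9% without WT replicate 1, where 9.64% of all genes stood under that p. Without WT replicate 3 the share from 2.5 to 10 Mb was 18.1%, above the 16.6% of all genes. The contrast in separate groups was narrower in some settings. Among genes that overlap no other row, groups were separate in 6 of 24 (25%) within 2.5 Mb and 7 of 34 (20.6%) beyond. Without WT replicate 3 the shares were 45.2% and 43.6%, and without both libraries rich in muscle transcripts 57.7% and 51.6%. They stayed further apart with trimmed mean scaling (33.8% and 21.3%), quantile normalization (32.4% and 17.0%) and any other single library left out. Joining the bins at 2.5 Mb and comparing them by settings were chosen after the values were seen.

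**Figure D2:**
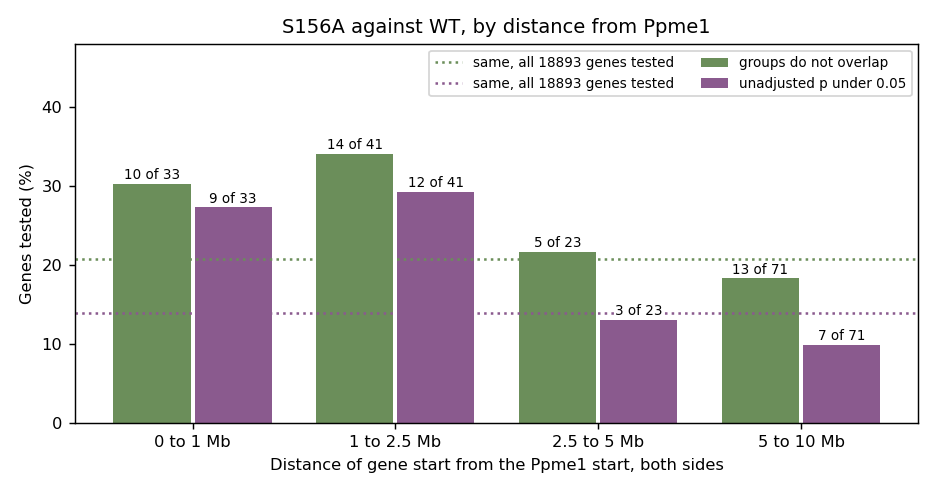
Share of tested genes (%, vertical axis) whose groups did not overlap and whose unadjusted limma p was under 0.05, in 4 bins of distance from the Ppme1 start, both sides joined. Dotted lines give the same shares over all 18893 genes tested, 20.8% and 13.9%, and both bars stand above them within 2.5 Mb.

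Of the 8 nearest named genes on the side of lower coordinates, Pgm2l1 and Lipt2 had lower values in every S156A library. Pgm2l1 (ENSMUSG00000030729.18, plus strand, 99876601 to 99928075, 99.3 kb away), which makes the sugar phosphate glucose 1,6-bisphosphate in brain, had 74.5, 70.0 and 56.8 TPM in WT and 36.3, 49.4 and 39.3 TPM in S156A. Every S156A library lay below every WT library. Means with SD were 67.1 ± 9.22 TPM for WT and 41.7 ± 6.87 TPM for S156A, over 3 libraries each. The log2 difference was -0.68 (SE 0.16, limma adjusted p = 0.161; exact permutation p = 0.1, the smallest that 3 against 3 libraries allow).

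Gpx2-ps1, a pseudogene inside Pgm2l1 on the same strand, had at most 3.25 TPM in any library and overlapping groups. P4ha3, a collagen prolyl hydroxylase subunit 41.2 kb from Ppme1, had 9.44, 6.59 and 11.9 TPM in WT and 15.4, 13.2 and 10.5 TPM in S156A. The lowest S156A library lay below the highest WT library, and the log2 difference of 0.46 (SE 0.25) had a limma adjusted p of 0.451. Lipt2, an enzyme of lipoic acid synthesis, had 14.0, 9.26 and 9.35 TPM in WT and 7.51, 9.09 and 7.91 TPM in S156A. These groups were separate by a narrow margin (log2 difference -0.35, SE 0.21, limma adjusted p = 0.505).

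The other named genes of this side had overlapping groups. Pold3, a subunit of DNA polymerase delta, and Rnf169, which binds chromatin at DNA breaks, both had a log2 difference of 0.21 (SE 0.16 each). Spcs2, a signal peptidase subunit, stood at 0.16 (SE 0.11). Neu3, a sialidase of gangliosides, stood at -0.04 (SE 0.26), with all 3 WT libraries between 2.24 and 2.28 TPM and S156A between 1.45 and 2.64 TPM.

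On the side of higher coordinates C2cd3 (ENSMUSG00000047248.21, 100021440 to 100119359) was the nearest gene, and in these coordinates it overlaps the 5′ end of Ppme1. It had 14.9, 15.1 and 12.1 TPM in WT and 17.4, 21.8 and 9.33 TPM in S156A. The S156A libraries held both its highest and its lowest value, and the log2 difference was 0.12 (SE 0.30, limma adjusted p = 0.890).

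Next to it, the pair Ucp2 and Dnajb13 had higher values in S156A. Ucp2 (ENSMUSG00000033685.14, plus strand, 100142544 to 100151227), a carrier of the inner mitochondrial membrane that macrophages express, had 20.5, 21.5 and 30.1 TPM in WT and 45.4, 33.4 and 40.4 TPM in S156A. Its groups did not overlap, with means of 24.0 ± 5.28 and 39.7 ± 6.03 TPM (SD, n = 3 each) and a difference on the log2 scale of 0.71 (SE 0.19, limma adjusted p = 0.197). Dnajb13 (ENSMUSG00000030708.15, minus strand, 100150923 to 100164167), a radial spoke protein of motile cilia, had 1.98, 1.24 and 3.09 TPM in WT and 9.31, 4.93 and 6.84 TPM in S156A. Here too every S156A library was above every WT library, at means of 2.11 ± 0.932 and 7.02 ± 2.2 TPM (SD, n = 3 each), and a difference on the log2 scale of 1.38 (SE 0.32, limma adjusted p = 0.158). The 2 rows overlap at their ends on opposite strands, and the sources used here do not say whether the counting used strand.

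Cell-type markers differed between the groups along with these genes. Summed levels of 8 motile cilia genes, a list chosen after values were seen, were 62.6 to 69.8 TPM in WT and 102 to 115 TPM in S156A, and 4 of the 8 were higher in every S156A library. Summed levels of 10 microglial markers were 138 to 232 TPM in WT and 419 to 508 TPM in S156A. Of these 10, 8 were higher in every S156A library, and none was at 0 in any library. In bulk RNA, more cells of a type and more RNA per cell cannot be told apart. Summed levels were also higher in every S156A library for 5 choroid plexus genes, a ciliated tissue whose list was chosen after values were seen (1083 to 1541 TPM in WT, 2280 to 3459 TPM in S156A). The same held for 5 pituitary markers (6.97 to 128 against 161 to 349.9 TPM, with Pou1f1, Gh, Prl and Cga at 0 in some library) and for 5 endothelial markers (155 to 210.5 against 221 to 233 TPM). In these lists 3, 2 and 1 of the 5 genes were higher in every S156A library. Over all genes tested 13.7% were higher in every S156A library and 7.05% lower, a background for every list here. Ttr alone held 1028 to 1471 TPM of the choroid plexus sum in WT and 2177 to 3335 TPM in S156A. Gh held 0 to 97.1 TPM of the pituitary sum in WT and 130 to 310 TPM in S156A. Cldn5 held 103 to 121 TPM of the endothelial sum in WT and 131 to 178 TPM in S156A. The sums of the 5 astrocyte markers overlapped, at 297 to 381 and 322 to 477 TPM. Single markers differed, with 2 of the 5 (Gfap and Aqp4) higher and 1 (Aldoc) lower in every S156A library. Gfap had 19.7 to 23.8 TPM in WT and 70.9 to 136 TPM in S156A. The part of any list in the values of Dnajb13 and Ucp2 was not tested.

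Beyond this pair lay genes with little difference. Coa4, a cytochrome oxidase assembly factor, had 5.41 to 6.20 TPM in WT and 5.70 to 6.24 TPM in S156A. Mrpl48, a mitochondrial ribosomal protein, ranged from 15.0 to 49.7 TPM within WT alone, wider than the S156A range of 25.8 to 31.9 TPM. Rab6a, a GTPase of Golgi traffic and the most abundant of these neighbours, had 236, 239 and 195 TPM in WT and 147, 215 and 183 TPM in S156A (log2 difference -0.30, SE 0.16, limma adjusted p = 0.445). Its groups overlapped. Plekhb1 and Fam168a stood at 0.13 (SE 0.18) and -0.02 (SE 0.15). The direction for C2cd3, Coa4, Mrpl48, Fam168a and Neu3 turned under some settings, given in the closing section.

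**Figure D3:**
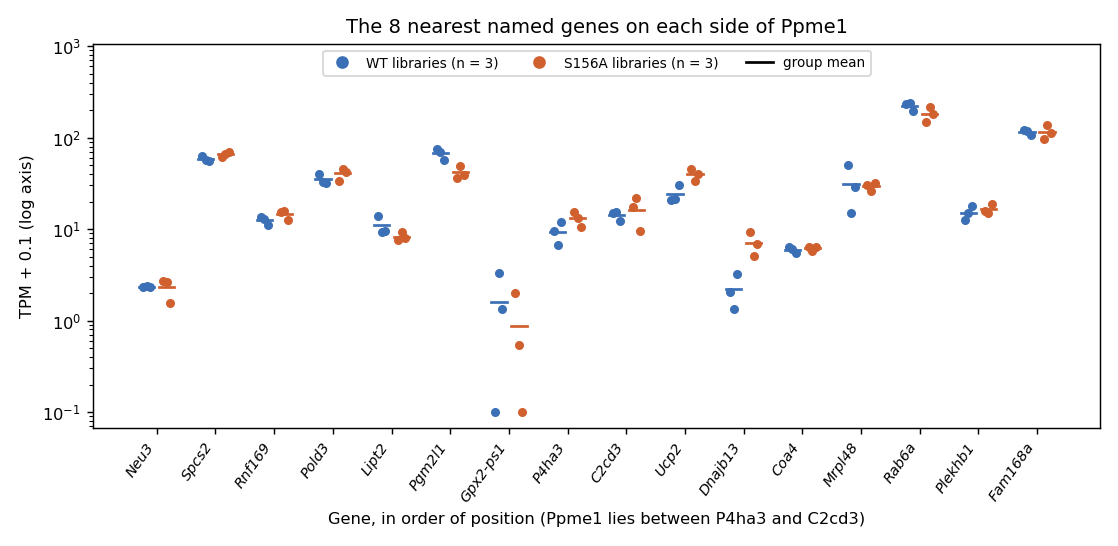
TPM of the 8 nearest named genes on each side of Ppme1 in each library (points), on a log axis of TPM + 0.1, with short lines in the group's colour for the mean of 3 WT or 3 S156A libraries. Pgm2l1 lies between 36.3 and 74.5 TPM with S156A below WT, and Ucp2 and Dnajb13 have S156A above WT in every library.

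Farther out, 4 of the 12 genes with the smallest p-values had higher values in S156A and lay within 2.5 Mb. Slco2b1 (ENSMUSG00000030737.18, minus strand, 99307011 to 99360547), an uptake transporter of organic anions, had 6.42, 3.03 and 3.24 TPM in WT and 10.9, 12.6 and 10.6 TPM in S156A. All S156A libraries exceeded all WT libraries, with means of 4.23 ± 1.90 and 11.4 ± 1.09 TPM (SD, n = 3 each) and a difference on the log2 scale of 1.30 (SE 0.28, limma adjusted p = 0.129). P2ry6 (ENSMUSG00000048779.6, minus strand, 100586837 to 100623856), a receptor for the nucleotide UDP on microglia, had 0.872, 1.05 and 3.45 TPM in WT and 6.02, 5.89 and 4.87 TPM in S156A. WT replicate 3 was the highest WT library and still below all S156A libraries (log2 difference 1.35, SE 0.37, limma adjusted p = 0.201). Both genes are also known from microglia, whose markers differed as given above, and the part of these cells in their values was not tested.

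Klhl35, a kelch-like gene (ENSMUSG00000035298.9, 99115211 to 99123229), had 3.86, 5.34 and 5.78 TPM in WT and 11.6, 8.38 and 9.47 TPM in S156A. Its groups were separate, at a difference on the log2 scale of 0.86 (SE 0.22, limma adjusted p = 0.195). Tsku, a secreted modulator of growth factor signalling 1.98 Mb away, had 11.1, 15.2 and 20.4 TPM in WT and 28.6, 25.3 and 25.3 TPM in S156A. Here the WT libraries spread more widely than the S156A libraries, and the log2 difference was 0.76 (SE 0.22, limma adjusted p = 0.215). Gm45591 (ENSMUSG00000109460.2, 98970407 to 98971662) lies inside Map6 on the same strand and had the reverse pattern, 29.1, 18.4 and 18.7 TPM in WT and 12.1, 10.5 and 7.80 TPM in S156A (log2 difference -1.04, SE 0.24, limma adjusted p = 0.152). Map6, a protein that stabilizes neuronal microtubules, had 155, 153 and 109 TPM in WT and 81.4, 113 and 99.7 TPM in S156A. Its groups overlapped (log2 difference -0.49, SE 0.18, limma adjusted p = 0.307), and reads of the 2 rows may be shared.

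Some of the smallest p-values belonged to genes between 5 and 10 Mb from Ppme1. The smallest of all was that of Gm24888 (ENSMUSG00000077575.3, plus strand, 109120487 to 109120616), with 4.33, 3.68 and 4.30 TPM in WT and 10.3, 12.4 and 8.25 TPM in S156A. Its groups did not overlap, and the log2 difference was 1.13 (SE 0.21, limma adjusted p = 0.0948). ENSMUSG00002074947 (109120456 to 109120575) overlaps it, and a difference on the log2 scale of 1.28 (SE 0.26, limma adjusted p = 0.112), and the 2 rows may not be separate measurements. Both lie within Rpl27a, a ribosomal protein gene whose own difference was 0.12 (SE 0.14) with overlapping groups.

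Nrip3 (ENSMUSG00000034825.15, minus strand, 109357262 to 109381232), 9.38 Mb away, had 14.2, 14.0 and 11.8 TPM in WT and 4.67, 7.86 and 6.09 TPM in S156A. All S156A libraries were below all WT libraries, at means of 13.3 ± 1.32 and 6.21 ± 1.60 TPM (SD, n = 3 each) and a difference on the log2 scale of -1.01 (SE 0.22, limma adjusted p = 0.13). Rab30, a Golgi GTPase 7.59 Mb away on the other side, had 12.3, 10.6 and 12.1 TPM in WT and 15.9, 22.6 and 17.9 TPM in S156A. The WT libraries were close together and all below S156A (log2 difference 0.63, SE 0.18, limma adjusted p = 0.205). With limma library weights, 2 genes of the window passed the test, Pgm2l1 (log2 difference -0.75) and Nrip3 (-1.04), each at an adjusted p of 0.0475, where 309 of all 18893 genes (1.64%) did. Over all alternatives the limma adjusted p ranged from 0.0475 to 0.522 for Pgm2l1 and from 0.0475 to 0.465 for Nrip3.

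**Figure D4:**
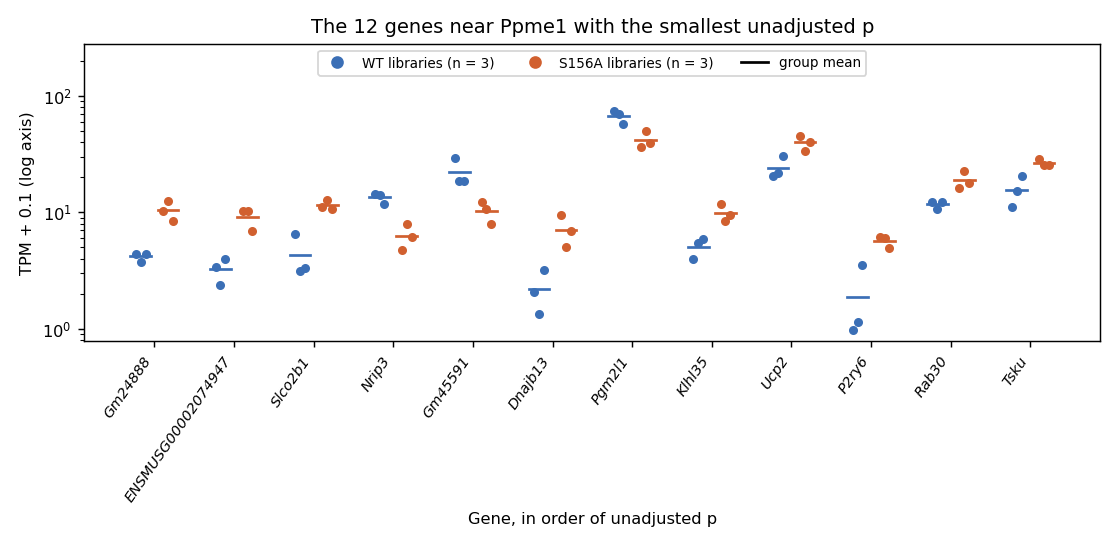
TPM per library (points, log axis of TPM + 0.1) of the 12 tested genes with the smallest unadjusted limma p, with short lines in the group's colour for the mean of 3 libraries. The groups of every gene drawn are separate, for example Nrip3 with 11.8 to 14.2 TPM in WT and 4.67 to 7.86 TPM in S156A, yet the smallest adjusted p among them was 0.0948.

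Grouped by role, the neuronal and synaptic genes had mostly lower values in S156A. Over all genes tested, 11657 were higher and 7236 lower in S156A, and with trimmed mean scaling 9484 and 9409, so counts by direction are read against these. Of 15 tested, 12 were lower and 3 higher in S156A, none passed the test, and 3 had separate groups, all lower, where 7.05% of all genes were separate and lower and 20.8% separate in either direction. Their median log2 difference was -0.30, with a range from -1.40 to 0.31, against a median of 0.09 over all genes tested. With trimmed mean scaling again 12 were lower, and after quantile normalization 13. Besides Pgm2l1 and Map6, the list named Phox2a (ENSMUSG00000007946.12, 101467520 to 101471933), a transcription factor of noradrenergic neurons, with 1.11, 1.87 and 4.35 TPM in WT and 0.517, 0.150 and 0 TPM in S156A. Its groups were separate at low levels, at a log2 difference of -1.40 that sets the lower end of the range above. It passed the filter on levels through WT alone, so its means had to differ, yet it is among the 3 genes with separate groups counted above. No test is given for it, and it overlaps Inppl1 on the other strand.

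The summed level of 5 other noradrenergic genes, a list chosen after values were seen, was 30.7 to 46.0 TPM in WT and 7.91 to 13.0 TPM in S156A. All 5 were lower in every S156A library, where 7.05% of all genes tested were. The sums of 5 general neuronal markers overlapped, at 2525 to 3441 TPM in WT and 1855 to 2704 TPM in S156A. Of the 5, 3 (Rbfox3, Snap25 and Syp) were lower in every S156A library. Tubb3 alone held 1829 to 2567 TPM of the sum in WT and 1368 to 1944 TPM in S156A, with overlapping groups. Map2 had the higher mean in S156A (172 TPM in WT, 227 TPM in S156A), also with overlapping groups. The part of these 2 lists in the values of neuronal genes near Ppme1 was not tested. Cckbr, the brain receptor for cholecystokinin, was the third neuronal gene with separate groups, named here after its values were seen: 5.71, 5.71 and 3.77 TPM in WT and 2.05, 3.45 and 3.34 TPM in S156A (log2 difference -0.62, SE 0.27, limma adjusted p = 0.366).

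The list of ligands and receptors, which holds P2ry6 and Tsku, stood on the other side. All 9 tested genes had a higher mean in S156A. The median of the 9 log2 differences was 0.33, and all 9 were higher under 3 other scalings too. In 3 of the 9 the groups did not overlap, all with S156A higher (13.7% of all genes), and none passed the test. Relt, a receptor of the TNF receptor family, had 2.69, 1.33 and 1.53 TPM in WT and 6.01, 2.1 and 7.22 TPM in S156A. S156A replicate 2 lay within the WT range, and the log2 difference was 1.01 (SE 0.42, limma adjusted p = 0.348).

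Lysosome, lipid and autophagy enzymes were even, with 5 of 10 tested genes higher and 5 lower in S156A and a median of 0.00266. With trimmed mean scaling 3 were higher and 7 lower, with a median of -0.08. Slco2b1 belonged to this list. Tpp1, a lysosomal peptidase, had 15.4, 16.3 and 23.6 TPM in WT and 40.6, 30.4 and 21.3 TPM in S156A. WT replicate 3 was above the lowest S156A library (log2 difference 0.69, SE 0.26, limma adjusted p = 0.323). Prcp, a lysosomal carboxypeptidase, stood at 0.26 (SE 0.19).

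Mitochondrial genes were also close to even, with 6 of 10 higher, 4 lower and a median of 0.03. With trimmed mean scaling the counts turned to 3 higher and 7 lower, with a median of -0.06. Groups were separate and higher in S156A in 1 of the 10 and separate and lower in 2, against 13.7% and 7.05% of all genes. Beside Ucp2 and Lipt2, groups were separate for Clpb, a mitochondrial protein disaggregase, whose WT values of 26.7, 24.6 and 23.3 TPM lay above the S156A values of 22.4, 22.6 and 22.9 TPM. That difference of -0.13 was close to its standard error of 0.12 (limma adjusted p = 0.675), so separate groups alone do not mark a large difference.

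Genes of chromatin, replication and the cell cycle were higher in S156A in 13 of 16, with a median of 0.22 (12 of 16, median 0.13, with trimmed mean scaling). Their groups were separate in 6, with 5 higher and 1 lower, against 13.7% and 7.05% of all genes. Rrm1, the large subunit of ribonucleotide reductase, had 31.8, 29.5 and 33.7 TPM in WT and 37.7, 39.9 and 41.8 TPM in S156A. The spread within either group was small (log2 difference 0.32, SE 0.11, limma adjusted p = 0.288). Numa1, a protein of the spindle poles, stood at 0.36 (SE 0.14) and Emsy, a chromatin-bound repressor, at 0.37 (SE 0.16), both with separate groups.

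Genes of translation, secretion and protein folding were higher in 10 of 12, with a median of 0.14 (9 of 12, median 0.05, with trimmed mean scaling). Alg8, an enzyme of N-glycan assembly, had 7.62, 6.64 and 9.28 TPM in WT and 11.7, 9.78 and 12.3 TPM in S156A, with separate groups (log2 difference 0.48, SE 0.19, limma adjusted p = 0.344). Serpinh1, a collagen chaperone, varied far more within groups than between them, with 123, 142 and 395 TPM in WT and 520, 212 and 213 TPM in S156A. Its highest libraries, WT replicate 3 and S156A replicate 1, are the same libraries in which 10 skeletal muscle markers summed to 6748 and 7459 TPM. In the other 4 libraries those markers ranged from 16.5 to 873 TPM, and their part in the Serpinh1 values was not tested. Rps3 and Rpl27a, ribosomal proteins and among the most abundant genes of the window, stood at 0.09 (SE 0.43) and 0.12 (SE 0.14), and the direction of Rps3 turned under some settings.

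Gvin genes encode interferon-induced GTPases, and several Trim genes of this cluster act in antiviral defence. Of 26 Trim and Gvin genes, 8 were tested, 6 higher and 2 lower in S156A, with a median of 0.31 (5 and 3, median 0.24, with trimmed mean scaling). Trim12c had 2.43, 1.76 and 2.86 TPM in WT and 4.55, 4.58 and 4.47 TPM in S156A, and Trim30a 0.828, 0.922 and 1.02 TPM against 2.60, 1.65 and 2.41 TPM. Both had separate groups, with a log2 difference of 0.74 (SE 0.23) for Trim12c, and no other of the 8 was separate and higher. Trim66, named here after its values were seen, was separate and lower, at a log2 difference of -0.34. Over all genes tested 13.7% were separate and higher and 7.05% separate and lower. Trim30a passed the filter on levels through S156A alone, so no test is given for it. Members of these families have close copies, so reads may have been divided among them. Trim3, a ubiquitin ligase of neurons, had 137, 133 and 106 TPM in WT and 99.8, 113 and 90.0 TPM in S156A, with overlapping groups (log2 difference -0.31, SE 0.14).

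Of 239 olfactory receptors, 201 were listed at 0 in every library. Olfr543 alone reached a mean of 1 TPM, with means of 1.64 ± 0.952 TPM for WT and 2.24 ± 0.342 TPM for S156A (SD over 3 libraries each) and overlapping groups. The olfactory receptors of the window therefore gave 1 comparison between the genotypes in brain.

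The window also holds 5 miRNA genes with RefSeq mature sequences. Their mature forms are printed to show what the rows stand for, with the seed (bases 2 to 8) in capitals (GRCm38.p6, 5′ to 3′). One arm per gene is shown.
mmu-miR-139-5p, chr7:101475382-101475403, plus strand: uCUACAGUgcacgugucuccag
mmu-miR-326-3p, chr7:99552328-99552348, plus strand: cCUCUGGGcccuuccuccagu
mmu-miR-708-5p, chr7:96249450-96249472, plus strand: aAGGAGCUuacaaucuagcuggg
mmu-miR-6394, chr7:96305740-96305760, plus strand: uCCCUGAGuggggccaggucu
mmu-miR-3102-5p, chr7:100882388-100882409, minus strand: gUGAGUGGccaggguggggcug
The 11 mature forms of these genes have 11 distinct seeds. Mir139 lies within Pde2a, Mir326 within Arrb1, Mir708 and Mir6394 within Tenm4, and Mir3102 within Arhgef17, each on the strand of its host. Mir139, Mir326 and Mir6394 were listed at 0 in every library, and Mir708 was at most 1.37 TPM. Mir3102, named here after its values were seen, had 0, 0.00443 and 0.909 TPM in WT and 1.10, 2.01 and 2.40 TPM in S156A, with separate groups. It passed the filter on levels through S156A alone, so no test is given for it. Its host Arhgef17 stood at -0.19 (SE 0.14) with overlapping groups. Libraries of total RNA of this kind read precursors and host transcripts rather than mature miRNAs.

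No well-expressed gene of the window was missing in 1 genotype. At 0 in all libraries of one genotype and above 0 in all of the other stood 3 of 689 genes (0.435%), against 0.356% of all annotated genes. These were Gm24552, Gm25636 and Gm39059, all at 0 in S156A and named here because of their values. Their WT levels were 0.84, 1.84 and 0.21 TPM for Gm24552, 0.37, 0.97 and 0.46 TPM for Gm25636 and 0.34, 1.12 and 0.32 TPM for Gm39059. When at least 0.5 TPM was asked of every library of the other genotype, 0 genes of the window remained, against 17 of all annotated genes (0.0307%). All 3 genes had WT means under 1 TPM, and a listed 0 can be a failed estimate.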

How the data were processed

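RNA was sequenced from whole brain at E18.5, in 3 WT and 3 S156A libraries of 3 pooled brains each, grouped by the sample titles. Each library has 1 deposited table of FPKM, TPM and coverage per gene row, per the file headers in the layout of StringTie. Per the submitters' processing notes, the tools were StringTie 2.1.5, HISAT2 2.2.1 and Trim Galore 0.6.6. The deposited TPM of assembled rows sum to 1000000 per library and those of annotated rows to 93.1% to 95.8% of that, so TPM here is the value as deposited. The deposited coverage is mean read depth per base and served only to estimate depth, at 3.15 to 4.14 aligned gigabases per library. Between 12.0% and 12.9% of rows sat at the commonest ratio of coverage to FPKM, so depth is only estimated, and counting intervals are left out. The sources used here give neither the strand setting nor the annotation release. The notes name a human build, but the rows carry mouse identifiers. Of 651 genes of the window matched by symbol, 0 started within 1000 bases of their GRCm38 position, so coordinates are given as the files have them, and the GRCm38 positions of printed sequences belong to those sequences only.

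Differences were fitted by limma 3.58.1 in R 4.3.3 on log2(TPM + 1) (trend, two-sided, no covariate). The fit covered the 18893 genes whose mean reached 1 TPM, and Benjamini-Hochberg adjustment ran over all of them. A gene passed at an adjusted p under 0.05. The scale understates differences of low genes. The exact permutation test over 3 against 3 libraries was two-sided. The limma step was tested on simulated data.

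The members, the gene lists and the tests were chosen with earlier results of these data known. Named were the 8 nearest tested genes with proper names on each side, the 12 with the smallest p, up to 3 of each list, those called or absent in 1 genotype, the 3 most abundant, and miRNA genes with their hosts. Other genes are marked in the text, and 1 gene list is not reported here. Alternatives were FPKM, pseudocounts of 0.1 and 5, no filter, a mean of at least 5 TPM, 3 scalings, 2 forms of moderation, library weights, a Y-linked covariate, a replicate block, each library left out, 2 libraries left out together, distances of 1, 2.5, 5 and 20 Mb and genes that overlap no other row.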

Additional observations from a re-analysis of the deposited data

How the results depend on the processing

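The number of genes near Ppme1 that passed the test was 0 under every alternative but library weights, which gave 2. The 42 genes whose groups did not overlap became 50 to 74 when single libraries were left out (64 or 37.6% without WT replicate 1, 74 or 44.3% without WT replicate 3). Fewer libraries make separate groups easier, and the shares over all genes were 26.0% to 37.5% in the same settings, 29.0% and 37.5% in those named. Without both libraries rich in muscle transcripts the number was 89, where 50.3% of all genes tested had separate groups. It was 10 within 1 Mb, 24 within 2.5 Mb, 72 within 20 Mb and 13 among genes that overlap no other row, for which fewer or more genes enter.

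The median log2 difference of 0.153 was 0.0966 with FPKM, 0.0227 with no filter, 0.106 with a pseudocount of 5, 0.0900 after quantile normalization, 0.0608 with trimmed mean scaling, 0.118 within 20 Mb and 0.121 to 0.190 with single libraries left out (0.190 without S156A replicate 3). The cause was not tested. The 3 genes at 0 in 1 genotype were 1 within 1, 2.5 or 5 Mb and among genes that overlap no other row, 5 within 20 Mb, 3 to 11 with single libraries left out (11 without WT replicate 3, 8 without WT replicate 1, 6 without WT replicate 2 or S156A replicate 1, 7 without S156A replicate 2) and 16 without both muscle-rich libraries.

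Of 44 named genes, 38 kept their direction under every alternative that gave them a value, and 6, none of which passed the test, did not. For 8 of the 38, among them Gpx2-ps1 (15 of 20 alternatives) and Phox2a (16), some alternatives gave no value. With the Y-linked covariate Rps3 stood at -0.0127, Mrpl48 at -0.0702 and Fam168a at 0.0920. With trimmed mean scaling Rps3 stood at -0.00356, Coa4 at -0.0397 and Mrpl48 at -0.0358, and after quantile normalization Coa4 at -0.0844 and Mrpl48 at -0.0183. C2cd3 stood at -0.154 with library weights. Without both muscle-rich libraries C2cd3 stood at -0.06, Coa4 at -0.0237 and Fam168a at 0.0581. With single libraries left out the log2 difference ranged from -0.284 to 0.502 for Rps3, -0.137 to 0.148 for Neu3, -0.119 to 0.453 for C2cd3, -0.00377 to 0.0798 for Coa4, -0.368 to 0.463 for Mrpl48 and -0.156 to 0.11 for Fam168a. The cause was not tested.

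Replicate numbers of the titles did not pair the libraries: deviations of WT and S156A libraries with the same number correlated at -0.55, 0.19 and -0.41, and WT replicate 3 correlated best with S156A replicate 1 (0.65). With the replicate block 0 genes of the window passed, and 23 (13.7%) had an unadjusted limma p under 0.05, against 9.95% of all genes. The 3 libraries per group limit what could be detected, and no read counts were used here to set limits for single genes.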

Other observations

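Transcribed loci outside annotated genes were counted apart from the genes near Ppme1. At 1 TPM or more, 16 such assembled loci lay within 10 Mb of Ppme1. Of these, 14 were found in 1 library and 2 in 2 libraries, and 0 were found in all S156A libraries and no WT library or the reverse. Over the whole genome there were 2855 loci, of which 10 were found in all S156A and no WT libraries and 4 in all WT and no S156A libraries.

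A set of 3 overlapping rows 1.74 to 1.76 Mb from Ppme1, chosen after their values were seen, had separate groups with higher values in S156A. Xndc1 had at most 20.7 TPM in WT, and 25.9, 41.3 and 23.4 TPM in S156A (log2 difference 0.55, SE 0.22). Xntrpc had 11.1, 9.91 and 9.44 TPM in WT and 16.4, 15.3 and 13.0 TPM in S156A. Trpc2, a channel gene of the vomeronasal organ, had 6.04, 4.43 and 3.28 TPM in WT and 9.37, 8.43 and 6.89 TPM in S156A. The rows overlap and may share reads, so they may not be 3 separate measurements. Myo7a, a myosin of sensory hair cells 2.28 Mb away on the other side, was also chosen after its values were seen. It had 8.58, 8.31 and 7.02 TPM in WT and 13.8, 11.7 and 10.5 TPM in S156A (log2 difference 0.53, SE 0.18, limma adjusted p = 0.281). Among all genes tested, 13.7% had every S156A library above every WT library.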
